A study of Mus musculus with 12 samples.

Results

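The experiment asked whether transforming growth factor beta (TGFb) alters the response of mouse macrophages to Pam3, and the measure described here is the interaction of both agents over all 12 libraries of the series. The cells were fetal liver alveolar-like macrophages (FLAMs), macrophages derived from mouse fetal liver and grown in recombinant mouse GM-CSF at 30 ng/ml, which every group received. The 4 groups of 3 libraries were untreated, TGFb (recombinant human TGFb1 at 20 ng/ml), Pam3 (the synthetic lipopeptide Pam3CSK4 at 25 ng/ml for 18 h) and Pam3+TGFb (both agents at these concentrations). The labels give no strain, age or number of animals and do not say that libraries of a group came from separate cultures or animals, so the p-values measure the spread between these libraries, which may be technical. All 10 macrophage markers examined, including Adgre1, Cd68, Csf1r and Lyz2, were measured. For each of 14749 genes with enough counts, the interaction is the log2 fold change made by Pam3 in cells with TGFb (Pam3+TGFb against TGFb) minus that in cells without it (Pam3 against untreated). It called 2352 genes, 15.9% of those tested, at an adjusted p under 0.05: 1516 higher (10.3%) and 836 lower (5.67%). Another scaling of the libraries (upper quartile) moved this split to 1255 higher and 1097 lower, which is 53.4% higher against 64.5%.

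Pam3 is recognised by the receptor TLR2 together with TLR1. Through the adaptor MyD88 the receptor activates NF-kB and AP-1 transcription factors, which switch on cytokine, chemokine and feedback inhibitor genes. Interferon-stimulated genes are controlled by IRF and STAT factors that bind interferon-stimulated response elements, and they encode antiviral proteins, guanylate-binding proteins and nucleic acid sensors. TGFb signals through SMAD factors, is required for the development of lung alveolar macrophages, and is known as a restraint on inflammatory genes in macrophages.

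Promoter windows of 12 genes with a called interaction were read, and the 4 that hold a match to a searched pattern are shown. The other 8 (Il1b, Acod1, Tnf, Areg, Socs3, Irf7, Siglecf and Ear1) held none, and Acod1, Areg, Irf7 and Tnf among them have larger interactions than Il1a. The 250 bases before the RefSeq start site (build GRCm38.p6, not the build of the counts) are given 5′ to 3′ on the strand of the gene. Capitals mark matches on either strand to 3 patterns: an ISRE-like pattern (TTTC, 2 bases of any kind, TTTC), an NF-kB-like pattern (GGG, 2 bases of any kind, TT, 1 of any kind, CC) and the AP-1 pattern (TGANTCA, where N is any base). The windows are chr5:92348890-92349139 (minus strand) for Cxcl10, chr1:174031756-174032005 (minus) for Ifi205, chr5:90785851-90786100 (plus) for Cxcl3 and chr2:129309973-129310222 (minus) for Il1a. In these windows Cxcl10 holds all 3 patterns, Ifi205 the ISRE-like pattern, Cxcl3 the NF-kB-like pattern and Il1a the AP-1 pattern.
Cxcl10: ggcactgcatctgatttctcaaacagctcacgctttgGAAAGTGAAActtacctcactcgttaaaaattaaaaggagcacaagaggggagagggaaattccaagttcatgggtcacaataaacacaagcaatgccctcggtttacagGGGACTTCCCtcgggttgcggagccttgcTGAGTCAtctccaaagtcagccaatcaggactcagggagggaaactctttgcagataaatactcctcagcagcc
Ifi205: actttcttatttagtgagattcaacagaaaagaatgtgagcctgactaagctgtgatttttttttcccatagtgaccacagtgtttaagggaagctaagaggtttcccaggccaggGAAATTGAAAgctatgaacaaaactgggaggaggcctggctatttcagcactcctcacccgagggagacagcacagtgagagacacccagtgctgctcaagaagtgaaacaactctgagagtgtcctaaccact
Cxcl3: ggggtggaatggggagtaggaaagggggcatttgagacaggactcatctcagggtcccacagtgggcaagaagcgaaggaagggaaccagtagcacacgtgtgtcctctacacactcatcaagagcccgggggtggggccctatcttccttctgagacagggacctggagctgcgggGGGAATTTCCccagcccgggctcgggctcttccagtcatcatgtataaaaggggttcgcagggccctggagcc
Il1a: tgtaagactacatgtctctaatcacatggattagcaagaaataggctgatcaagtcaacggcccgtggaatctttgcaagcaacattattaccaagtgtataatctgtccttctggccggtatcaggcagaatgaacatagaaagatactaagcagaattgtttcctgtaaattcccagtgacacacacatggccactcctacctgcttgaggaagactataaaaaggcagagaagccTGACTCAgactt

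Over windows from 250 bases before to 50 after the start, the ISRE-like pattern occurred on either strand in 438 of 11210 tested genes with a promoter entry, or 3.91%. It occurred in 9.81% of genes with a higher interaction and 2.83% of those with a lower one. Among genes raised by at least 1 on the log2 scale, the share was 34.4% (31 of 90) where the TGFb effect was called negative at rest and positive with Pam3, 20.0% where it was called with Pam3 only, 17.5% where it was called at rest only and 8.93% where it kept its sign. By family, the lists with the highest shares are named first for that reason. The pattern was in 15 of 24 antiviral effector promoters, 9 of 10 of GBP and IRG GTPases and 9 of 11 of PYHIN genes, whose neighbouring members have related sequence. In other interferon-linked lists it was in 12 of 22 promoters of PARP, Schlafen and TRIM genes. It was in 2 of 15 of interferon signalling genes and IRFs and 2 of 14 of nucleic acid sensing genes. The NF-kB-like pattern was in 6.48% of all tested promoters, 8.97% of those with a higher and 5.37% of those with a lower interaction. In the same 4 groups its share was 22.2% (20 of 90) with effects of opposite sign, 5.0% (2 of 40) with Pam3 only, 8.77% (5 of 57) at rest only and 11.6% (13 of 112) with the same sign. The AP-1 pattern was in 6.75% of all tested promoters, 10.3% of those with a higher and 7.6% of those with a lower interaction. Its shares in the 4 groups were 17.8% (16 of 90) with opposite sign, 20.0% (8 of 40) with Pam3 only, 19.3% (11 of 57) at rest only and 14.3% (16 of 112) with the same sign, so it was not most frequent in the opposite-sign group as the other 2 patterns were. For the NF-kB-like pattern, the lists with the highest shares are named here for that reason: it was in 10 of 21 promoters of the NF-kB list (47.6%) and 5 of 8 of CXC chemokines (62.5%). A match is a description of letters and not evidence of binding.

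By its arithmetic the interaction equals the TGFb effect measured with Pam3 minus the TGFb effect at rest, so each called gene can be placed by which of these effects was itself called. Of the 1516 genes with a higher interaction, 462 (30.5%) were lower with TGFb both at rest and with Pam3, by less with Pam3. A further 366 (24.1%) were lower at rest and not called different with Pam3, and 228 were lower at rest and higher with Pam3. Another 273 (18.0%) were called higher with Pam3 only and 176 (11.6%) were higher in both states. TGFb itself changed 51.0% of tested genes at rest (22.9% higher, 28.1% lower) and 45.3% with Pam3 (21.5% higher, 23.8% lower). Neither level alone held the interaction: 955 of the 1516 (63.0%) had the larger TGFb effect at rest. An interaction of at least 1 in size was called for 479 genes, 3.25% of those tested (2.61% higher, 0.637% lower). Among the 385 higher ones, 116 (30.1%) were lower at rest and higher with Pam3, the most frequent of these placements. Of the 836 genes with a lower interaction, 279 (33.4%) were higher with TGFb at rest and not called different with Pam3, 234 (28.0%) were higher in both states, 156 (18.7%) were lower with Pam3 only and 115 (13.8%) were lower in both.

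Pam3 changed 18.3% of tested genes without TGFb (9.62% higher, 8.66% lower) and 38.5% with it (20.4% higher, 18.1% lower). Read as Pam3 responses, 861 genes had a stronger response with TGFb and 1224 a response called only with it. The response was weaker in 16 genes and called only without TGFb in 118. In 68 genes both responses were called with opposite sign, and 65 called genes had neither. Without Pam3 1, 2 and 3 the opposite signs numbered 32, 35 and 44. The weaker responses numbered 7 to 9 without those libraries, Pam3+TGFb 1 or 2, or TGFb 2 or 3. In the 7 libraries with a low share of ribosomal RNA, described below, 9 responses had opposite signs and 3 were weaker. The interaction is a difference of log ratios, and a gene brought low by TGFb at rest can show a larger fold on a smaller rise. On the linear scale of CPM (library-scaled counts) the difference of the 2 changes had the same sign in 1430 of 1516 (94.3%) and 815 of 836 (97.5%). It had the opposite sign by over 2 SE in 36 and 6 genes, some of which are described with their families.

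**Figure D1:**
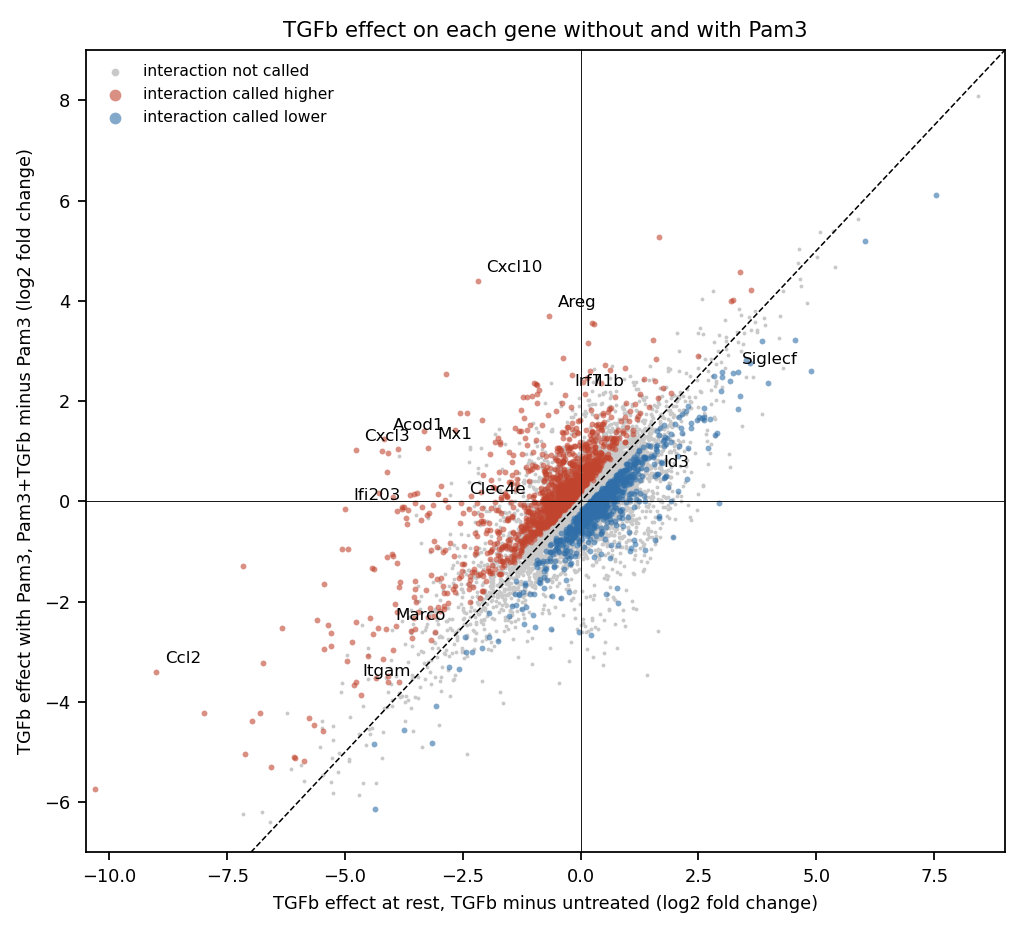
TGFb effect at rest (horizontal axis) against TGFb effect with Pam3 (vertical axis), each a log2 fold change. Each of 14400 genes is a point, coloured where the interaction was called higher or lower, and the dashed line marks equal effects. Genes with every library of a group at 3 counts or fewer (349) are not drawn and 3 genes lie beyond the axes. Cxcl10, Mx1, Cxcl3 and Acod1 sit left of and above 0, Ifi203 and Clec4e near the horizontal line, Il1b and Irf7 near the vertical line, and Ccl2, Marco and Itgam below 0 on both axes.

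Libraries differed in 1 way the groups do not explain. Totals ran from 34036650 to 44374115 counts. A set of 12 rows was chosen after the data were seen because they rose together in 5 libraries. Most are ribosomal or other non-messenger RNA, but Lars2 among them is a protein-coding gene. These rows took 5.02% to 8.27% of counts in those 5 libraries (untreated 3, TGFb 1 and 3, Pam3 2 and 3). Their share was 0.196% to 1.63% in the other 7, which include all 3 with both agents. With this share as a covariate 2081 genes were called. With only those 7 libraries, where TGFb and Pam3 have 1 library each that is assumed to vary like the other groups, 802 were called, and all 2350 of the called genes tested there kept their sign. The 7 libraries are part of the 12 that gave the calls, so the kept signs are not independent evidence. Genes named below whose call is lost in that fit are marked as such. At the family level the median interaction in that fit was 1.83 for antiviral effectors, 1.87 for GTPases and 2.61 for PYHIN genes. Over all 15597 genes tested in it the median was 0.0089. Counts of list members called in that fit, given below, should not be set against 10.3% and 5.67%, which belong to all 12 libraries. Its calls over all genes are given under how the results depend on the processing. Summed macrophage marker CPM was 34500 to 39100 in untreated libraries, 17900 to 18800 with TGFb, 37400 to 38200 with Pam3 and 26900 to 27600 with both, and 8 of its 10 genes had a higher interaction. Of 10 neutrophil markers 6 passed the filter, and their sum (67.5 to 546 CPM) was mostly Mmp8. The sums for erythroid, megakaryocyte, mast cell, hepatocyte, stromal, endothelial, dendritic and lymphoid markers stayed under 26 CPM. Their part in the results was not tested, and in bulk RNA a change in the share of cells and a change per cell cannot be told apart.

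In the interferon-stimulated families TGFb lowered many genes at rest and raised them with Pam3. Of 31 tested antiviral effectors 28 had a higher interaction and 1 a lower one, against the backgrounds of 10.3% and 5.67% given above. Their median TGFb effect was −0.82 at rest and 1.27 with Pam3. All but 1 of 17 GBP and IRG GTPases, which act on vacuoles holding pathogens, had a higher interaction, with medians of −1.21 and 1.40. So did 11 of 12 PYHIN genes, several of which sense DNA (−2.08 and 0.89), and 23 of 26 PARP, Schlafen and TRIM genes (−0.21 and 0.94). Median interactions were 2.43, 2.16, 3.00 and 1.18 in these 4 lists, against 0.0045 over all genes tested. Many members are near-identical neighbours between which reads may be split, so values of single members are less certain than those of the family.

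Cxcl10 (chromosome 5, 92494497 to 92496748 in GRCm39) encodes a chemokine for T cells that interferon and NF-kB both control. It was at 2.08, 3.22 and 1.88 CPM in untreated libraries, 0.332, 1.01 and 0.210 with TGFb, 13.3, 12.4 and 8.99 with Pam3 and 263, 256 and 215 with both. The TGFb libraries lay below all untreated ones and the libraries with both agents above all others, with no overlap. The TGFb effect went from −2.18 ± 0.50 (SE) at rest to 4.39 ± 0.25 with Pam3, an interaction of 6.57 ± 0.53 (adjusted p = 3.4e-05). Mx1, a GTPase that blocks influenza viruses, was at 9.52, 13.9 and 12.8 CPM untreated, 0.470, 1.85 and 1.47 with TGFb, 66.6, 59.5 and 47.9 with Pam3 and 123, 123 and 118 with both. Its groups also did not overlap, and the effect went from −3.23 ± 0.33 to 1.06 ± 0.21 (interaction 4.29 ± 0.39, adjusted p = 8.3e-05). Ifi205, a PYHIN gene, ran at 4.73 to 6.57, 0.786 to 1.16, 17.4 to 21.0 and 62.5 to 67.3 CPM in the same order, with an interaction of 4.33 ± 0.18 (adjusted p = 1.9e-14). The same crossing from lower to higher was called for 13 of the 28 antiviral effectors, 9 of 16 GTPases, 5 of 11 PYHIN genes and 10 of 23 PARP, Schlafen and TRIM genes.

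Other members of these families differed in where the interaction lay. Ifi203 (chromosome 1, 173747971 to 173770436) was at 65.0, 57.9 and 69.4 CPM untreated, 1.85, 2.69 and 1.39 with TGFb, 118, 117 and 93.4 with Pam3 and 106, 91.9 and 95.8 with both. The last 2 groups overlapped and their difference missed the threshold (−0.16 ± 0.13, adjusted p = 0.37), while the effect at rest was −5.01 ± 0.18, so its interaction of 4.85 ± 0.23 lay in the level at rest. Phf11b, Gbp4, Ifi209 and Slfn1 were placed the same way, with effects at rest of −3.51, −3.53, −3.48 and −3.67 and effects with Pam3 from −0.17 to 0.17. Irf7, the factor that amplifies interferon production, had the other placement. It was at 5.47, 9.36 and 5.90 CPM untreated and 4.93, 6.84 and 4.82 with TGFb, which overlap, then 57.0, 48.4 and 45.9 with Pam3 and 218, 221 and 220 with both. Its effect at rest was −0.33 ± 0.22 (adjusted p = 0.26) and with Pam3 2.12 ± 0.17 (interaction 2.45 ± 0.28, adjusted p = 2.6e-04).

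Stat2, which carries the interferon signal to the nucleus, was already higher with TGFb at rest (0.24 ± 0.05) and more so with Pam3 (1.39 ± 0.05). Ifitm3, which restricts viral entry, stayed lower with TGFb in both states (−7.17 ± 0.28 and −1.29 ± 0.14). It was at 9.41 to 11.7 CPM untreated, 0 to 0.131 with TGFb and 4.86 to 6.16 with both agents. With so few counts in the TGFb libraries its effect at rest is not exact. Its interaction of 5.89 was 5.34 without TGFb 1 and 6.65 without TGFb 3. Of 16 interferon signalling genes and IRFs 9 had a higher interaction. Irf8, a factor for macrophage identity, had a lower one of −0.29 ± 0.07 (adjusted p = 0.0045), a call lost in the 7 libraries. Of 19 nucleic acid sensing genes 15 had a higher interaction and Tlr8, a receptor for RNA, a lower one (−0.34 ± 0.07). Among the 15 were Zbp1 (2.19 ± 0.10) and the RNA sensors Ddx58 (1.63 ± 0.09) and Ifih1 (1.51 ± 0.11).

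In MHC class I presentation 20 of 25 genes had a higher interaction and none a lower one, with median TGFb effects of −0.05 at rest and 0.74 with Pam3. Nlrc5, the transactivator of class I genes, was at 7.89 to 9.95 CPM untreated, 0.840 to 1.18 with TGFb, 20.6 to 26 with Pam3 and 21.6 to 22.8 with both. It was thus low at rest with TGFb and within the Pam3 range with both (interaction 3.05 ± 0.18, adjusted p = 3.7e-12). Of 11 class II presentation genes 3 were called higher (27.3%) and 2 lower (18.2%). Cd74, the invariant chain, had an interaction of 0.79 ± 0.08 and was lower with TGFb at rest and with Pam3 (−1.73 ± 0.06 and −0.94 ± 0.06). The class II chains H2-Ab1 (0.75 ± 0.14) and H2-Aa (0.56 ± 0.15) were higher, and H2-DMa (−0.41 ± 0.08) and H2-DMb2 (−0.63 ± 0.11), which load peptides, were lower. The calls of these 4 genes, unlike that of Cd74, were lost in the 7 libraries.

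**Figure D2:**
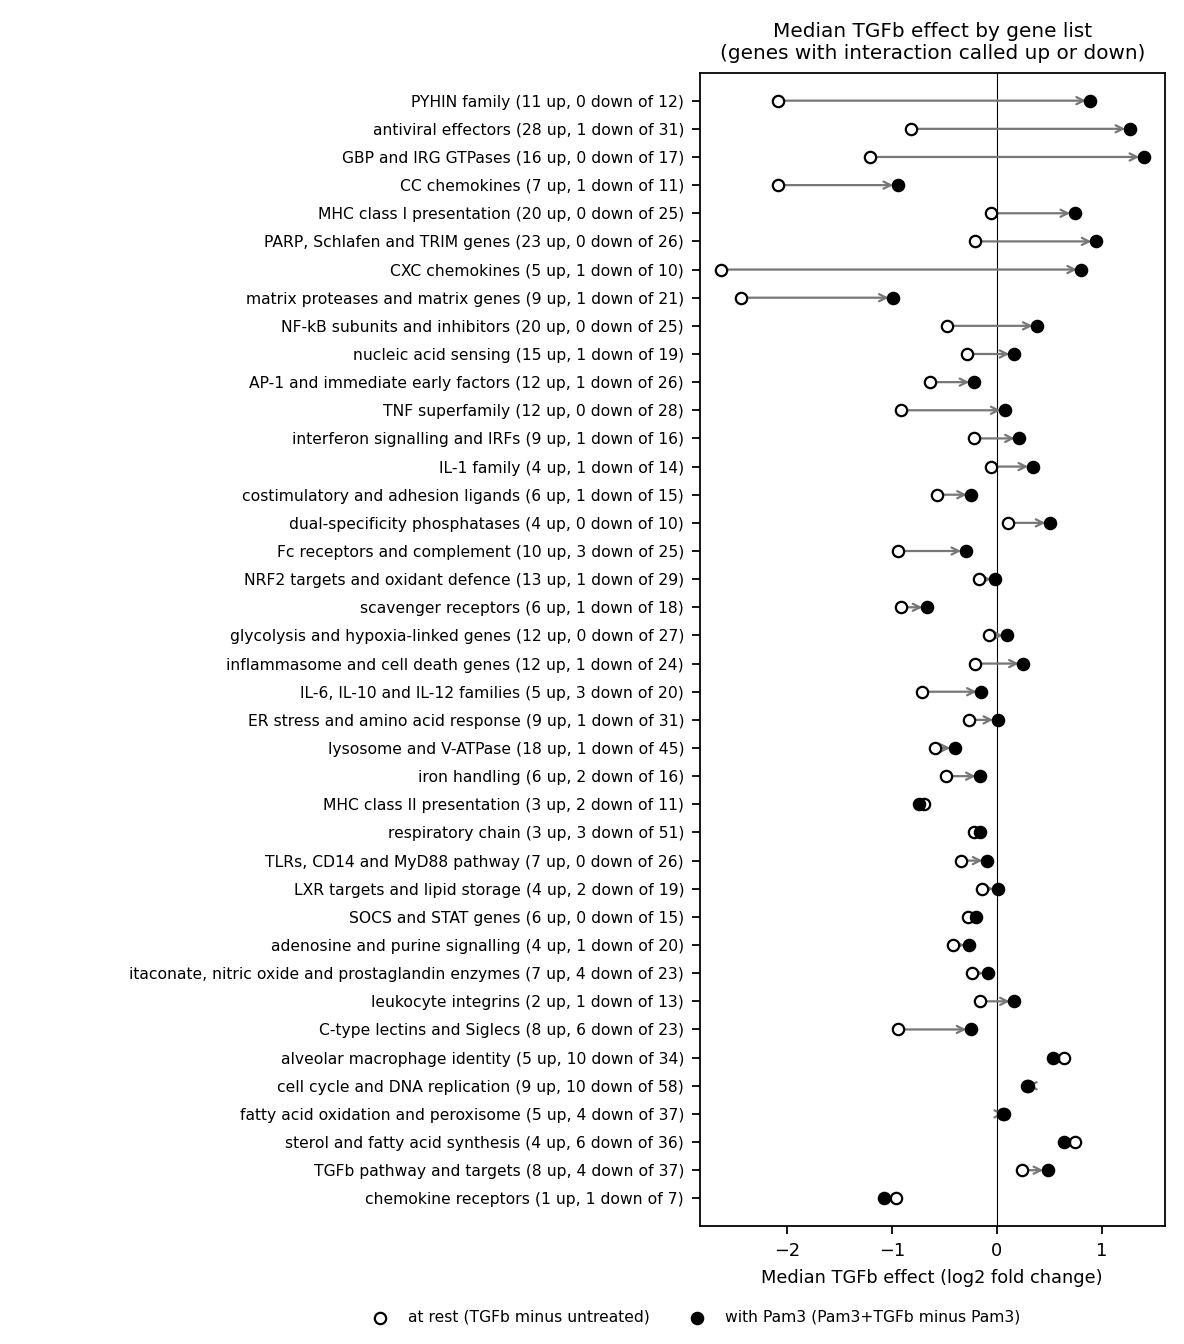
Median TGFb effect (log2 fold change) over the tested members of each of 40 gene lists, at rest (open circles) and with Pam3 (filled circles), joined by an arrow. Lists are ordered by median interaction, and each name gives the number of members with a higher or lower call. The PYHIN, antiviral, GTPase and CXC chemokine lists cross from below to above 0, while CC chemokines and matrix genes stay below 0.

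CXC and CC chemokines draw neutrophils and monocytes, and a difference in placement between the lists was not tested. Of 10 CXC chemokines 5 had a higher interaction and Cxcl14 a lower one. Among those 5, 3 were lower with TGFb at rest and higher with Pam3, 1 was lower at rest only and 1 was higher in both states. The neutrophil chemokine Cxcl3 was at 13.9, 21.9 and 21.8 CPM untreated, 0.858, 0.667 and 0.576 with TGFb, 90.2, 75.9 and 110 with Pam3 and 231, 165 and 167 with both. All 4 groups were separate, with a TGFb effect of −4.78 ± 0.36 at rest and 1.03 ± 0.21 with Pam3 (interaction 5.81 ± 0.42, adjusted p = 1.8e-05). Cxcl2 ran the same way (−4.12 ± 0.29 and 0.58 ± 0.19). The calls of Cxcl3, Cxcl2 and Cxcl14 were lost in the 7 libraries. Of 11 CC chemokines 7 had a higher interaction and Ccl6 a lower one (lost in the 7 libraries and without Pam3 1, Pam3 2 or untreated 3), and all 7 were lower with TGFb at rest and with Pam3. The call of Ccl7, 1 of the 7, is not secure. Its TGFb libraries had no counts, its interaction with TGFb at the floor of 3 counts per library was −0.16, the opposite sign, and its adjusted p was 0.0498. The Ccl7 call was also lost in the 7 libraries, under RLE and upper-quartile scaling, with the covariate, with the replicate block, and without any 1 of 10 libraries (all but Pam3+TGFb 2 and untreated 1). The median interaction of the list was 1.52, or 0.58 with its members that had a group at the floor placed at their bounds and 0.59 without untreated 2. In the 7 libraries 1 of the 10 CXC and 5 of the 11 CC chemokines were called higher.

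Ccl3 (chromosome 11, 83538670 to 83540191), a chemokine that attracts monocytes and other leukocytes, was at 85.3, 108 and 84.6 CPM untreated, 3.07, 2.49 and 2.72 with TGFb, 169, 158 and 137 with Pam3 and 84.2, 82.6 and 72.7 with both. Libraries with both agents lay just below the untreated ones and below all Pam3 ones. The effect went from −5.07 ± 0.13 to −0.95 ± 0.10 (interaction 4.12 ± 0.16, adjusted p = 8.7e-11). On the linear scale the rise with TGFb exceeded that without it by 15.3 ± 12.7 CPM (SE), about its own error. Ccl2, the main monocyte chemokine, was not called changed by Pam3 without TGFb (0.13 ± 0.08, adjusted p = 0.26) and rose by 5.74 ± 0.19 with it. It reached 6.01 to 7.48 CPM against 69.2 to 73.2 with Pam3 alone. The linear difference for Ccl2 was 0.289 ± 3.30 CPM, so its large interaction of 5.60 ± 0.22 is one of ratios. Of 7 chemokine receptors 1 was called in each direction: Ccrl2 had a higher interaction (2.36 ± 0.15) and Cxcr4 a lower one (−0.98 ± 0.16, adjusted p = 7.4e-05, lost in the 7 libraries).

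Of 14 IL-1 family genes 4 were called higher and Il1rl2 lower. For 3 of the 4 (Il1a, Il1b and Il1rn) the TGFb effect was called with Pam3 only, and Il1f9 was higher with TGFb at rest too (0.44 ± 0.11, and 2.35 ± 0.11 with Pam3). The call of Il1rl2, a receptor chain (−0.26 ± 0.07), was lost in the 7 libraries. Il1b (chromosome 2, 129206490 to 129213059), which drives fever and neutrophil recruitment, was at 46.8, 76.6 and 61.3 CPM untreated, 68.0, 69.0 and 60.0 with TGFb, 385, 308 and 377 with Pam3 and 1727, 1512 and 1449 with both. The groups without Pam3 overlapped (0.09 ± 0.17, adjusted p = 0.70) and those with it did not (2.13 ± 0.18, interaction 2.04 ± 0.24, adjusted p = 4.6e-04). Il1a followed with an interaction of 2.09 ± 0.18, and Il1rn, the natural antagonist of both, with 0.88 ± 0.10. Agonists and antagonist were therefore higher together. The call of Il1b, unlike those of Il1a and Il1rn, was lost in the 7 libraries (2.04 in all 12). Of 20 genes of the IL-6, IL-10 and IL-12 families 5 were called higher and 3 lower, or 4 and 1 in the 7 libraries. Il6, an acute-phase cytokine, crossed from −4.08 ± 0.47 at rest to 0.97 ± 0.21 with Pam3. Both subunits of its receptor went the other way. Il6st was at 124, 98.3 and 122 CPM untreated, 101, 108 and 108 with TGFb, 91.2, 86.4 and 93.4 with Pam3 and 61.2, 56.3 and 59.8 with both, so that it was lower than in every other library only with both agents. Its interaction was −0.49 ± 0.10 (adjusted p = 7.0e-04) and that of Il6ra −0.43 ± 0.11 (adjusted p = 0.0080, lost in the 7 libraries).

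Of 28 TNF superfamily ligands and receptors 12 had a higher interaction and none a lower one, or 6 in the 7 libraries. Tnf was at 59.3, 76.4 and 59.9 CPM untreated, 20.6, 20.2 and 18.2 with TGFb, 151, 141 and 144 with Pam3 and 234, 217 and 201 with both, 4 separate groups. Its effect went from −1.73 ± 0.09 to 0.58 ± 0.08. Tnfsf15, a ligand that costimulates lymphocytes, crossed further (−4.21 ± 0.26 and 1.01 ± 0.15, interaction 5.22 ± 0.30, adjusted p = 5.5e-09). Cd40, a costimulatory receptor, had 3 counts or fewer in each TGFb library. Against that floor Pam3 raised it at least 54.5-fold with TGFb and 5.02-fold without it (call lost in the 7 libraries). Of 26 genes of the TLR and MyD88 pathway 7 were called higher and none lower, or 4 higher in the 7 libraries. Tlr2 itself went from −0.49 ± 0.05 to 0.81 ± 0.05, and Myd88 from −0.44 ± 0.05 to 0.30 ± 0.05.

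The NF-kB list holds subunits, inhibitors and feedback enzymes, and 20 of its 25 genes had a higher interaction (medians −0.48 at rest and 0.38 with Pam3), and 13 in the 7 libraries. In 10 of the 20 the TGFb effect crossed from lower to higher. Tnfaip3, the ubiquitin-editing enzyme that ends NF-kB signalling, was at 40.6 to 45.0 CPM untreated, 15.6 to 16.3 with TGFb, 66.4 to 73.2 with Pam3 and 116 to 128 with both (interaction 2.24 ± 0.09, adjusted p = 4.9e-15). Nfkbie, an inhibitor that holds NF-kB in the cytoplasm, had an interaction of 2.62 ± 0.11. Tnip3, another feedback inhibitor, stayed lower with TGFb in both states (−5.60 ± 0.14 and −2.37 ± 0.10). Of 26 AP-1 and immediate early factors 12 were called higher (46.2%) and Egr2 lower (−0.26 ± 0.07, lost in the 7 libraries and without Pam3 1). Among the 12, 6 were lower with TGFb in both states, 3 lower at rest only, 1 lower at rest and higher with Pam3, 1 higher with Pam3 only and 1 higher in both. Atf3 was lower in both (−3.12 ± 0.09 and −0.79 ± 0.08).

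Among feedback inhibitors of cytokine signalling, Socs3, which blocks signalling through the IL-6 receptor, was at 39.7, 55.2 and 40.0 CPM untreated, 11.1, 11.1 and 9.30 with TGFb, 118, 105 and 116 with Pam3 and 110, 103 and 98.6 with both. The last 2 groups overlapped (−0.12 ± 0.11, adjusted p = 0.39), and the interaction was 1.97 ± 0.16 (adjusted p = 1.2e-06). Socs1 did the same (−1.62 ± 0.14 at rest, 0.17 ± 0.11 with Pam3). In the SOCS and STAT list 6 of 15 genes were called higher, all of them lower with TGFb at rest. Clec4e, a lectin receptor for mycobacterial glycolipid, was at 88.8, 128 and 121 CPM untreated, 18.5, 20.8 and 18.4 with TGFb, 311, 274 and 279 with Pam3 and 316, 263 and 268 with both. Its interaction of 2.52 ± 0.20 (adjusted p = 1.9e-05) thus lay in the level at rest, and its call was lost in the 7 libraries. The neighbouring Clec4d was placed alike (1.33 ± 0.17), as was Ass1, which makes the arginine used for nitric oxide (1.72 ± 0.14).

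Enzymes of itaconate, nitric oxide and prostaglandin synthesis were called in both directions, 7 of 23 higher and 4 lower, or 3 and 1 in the 7 libraries. Acod1, which makes itaconate, crossed from −4.16 ± 0.33 to 1.25 ± 0.18 (interaction 5.41 ± 0.38, call lost in the 7 libraries). Ptgs2, the inducible cyclooxygenase, was at 0.421 to 0.570 CPM untreated, 0 to 0.105 with TGFb, 1.81 to 2.38 with Pam3 and 1.61 to 2.65 with both. Its groups with Pam3 overlapped, and its interaction was 3.63 ± 0.77 (adjusted p = 0.0013), or 7.15 without TGFb 3, at few counts. Slc7a11, the cystine importer that feeds glutathione synthesis, was at 188, 202 and 241 CPM untreated, 143, 195 and 152 with TGFb, 451, 416 and 480 with Pam3 and 1336, 1003 and 1113 with both. The groups without Pam3 overlapped (−0.37 ± 0.15, adjusted p = 0.076) and the interaction was 1.73 ± 0.22 (adjusted p = 5.4e-04). Of 29 NRF2 targets 13 were called higher and 1 lower, or 5 and none in the 7 libraries. Of 27 glycolysis and hypoxia-linked genes 12 were called higher and none lower, or 7 higher without Pam3+TGFb 1 or TGFb 3 and 5 in the 7 libraries. Their median interaction was 0.23 in all 12 libraries and 0.26 in the 7. They included the glucose transporter Slc2a1 (1.01 ± 0.08), the first enzyme Hk2 (0.72 ± 0.06) and Pfkl (0.53 ± 0.10). Among the lower calls of the enzyme list, Alox5, which starts leukotriene synthesis, was at 203, 214 and 198 CPM untreated, 213, 203 and 206 with TGFb, 174, 168 and 183 with Pam3 and 122, 132 and 136 with both. It was lower in the last group than in any other (interaction −0.44 ± 0.07, adjusted p = 3.3e-05, lost in the 7 libraries). Ptgs1, the constitutive cyclooxygenase, had −0.41 ± 0.06. In the respiratory chain 3 of 51 genes were called in each direction (5.88%). This share was near the 5.67% called lower and below the 10.3% called higher over all genes. The median interaction of the list was 0.071 in all 12 libraries and 0.050 in the 7. Leaving out single libraries gave 1 to 5 higher and 0 to 4 lower.

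Of 18 scavenger receptors 6 were called higher and 1 lower (33.3% and 5.56%), or 3 and none in the 7 libraries, and 4 of the 6 were lower with TGFb in both states. Of 21 matrix proteases and matrix genes 9 were called higher and 1 lower (42.9% and 4.76%), or 5 and 1 in the 7 libraries. Among the 9, TGFb effects were lower in both states in 4 and lower at rest only in 3. Marco (chromosome 1, 120402267 to 120432753), a scavenger receptor for bacteria, was at 1890, 2422 and 2128 CPM untreated, 119, 130 and 120 with TGFb, 3400, 3325 and 3182 with Pam3 and 555, 599 and 551 with both. Every library with TGFb lay below every library without it. The Pam3 response was 2.20 ± 0.07 with TGFb and 0.62 ± 0.07 without it (interaction 1.58 ± 0.10, adjusted p = 1.2e-11), while the rise was smaller with TGFb on the linear scale (difference −710 ± 167 CPM). Itgam, the integrin CD11b, likewise had a higher interaction (1.15 ± 0.08) and a linear difference of −130 ± 38.8 CPM. H2-M2, a nonclassical class I gene, had 2.90 ± 0.35 with a linear difference of −28.7 ± 2.48 CPM. Mmp12, the macrophage elastase, had 1.76 ± 0.09 with a linear difference of 263 ± 89.1 CPM. Of 45 lysosome and V-ATPase genes 18 were called higher and 1 lower, with a small median of 0.14, and 16 of the 18 were lower with TGFb in both states, as Ctsb was (−1.31 ± 0.05 and −0.83 ± 0.05). Under upper-quartile scaling 12 of the 45 were called higher, and in the 7 libraries 3. Without Pam3+TGFb 1 or TGFb 3 there were 11.

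**Figure D3:**
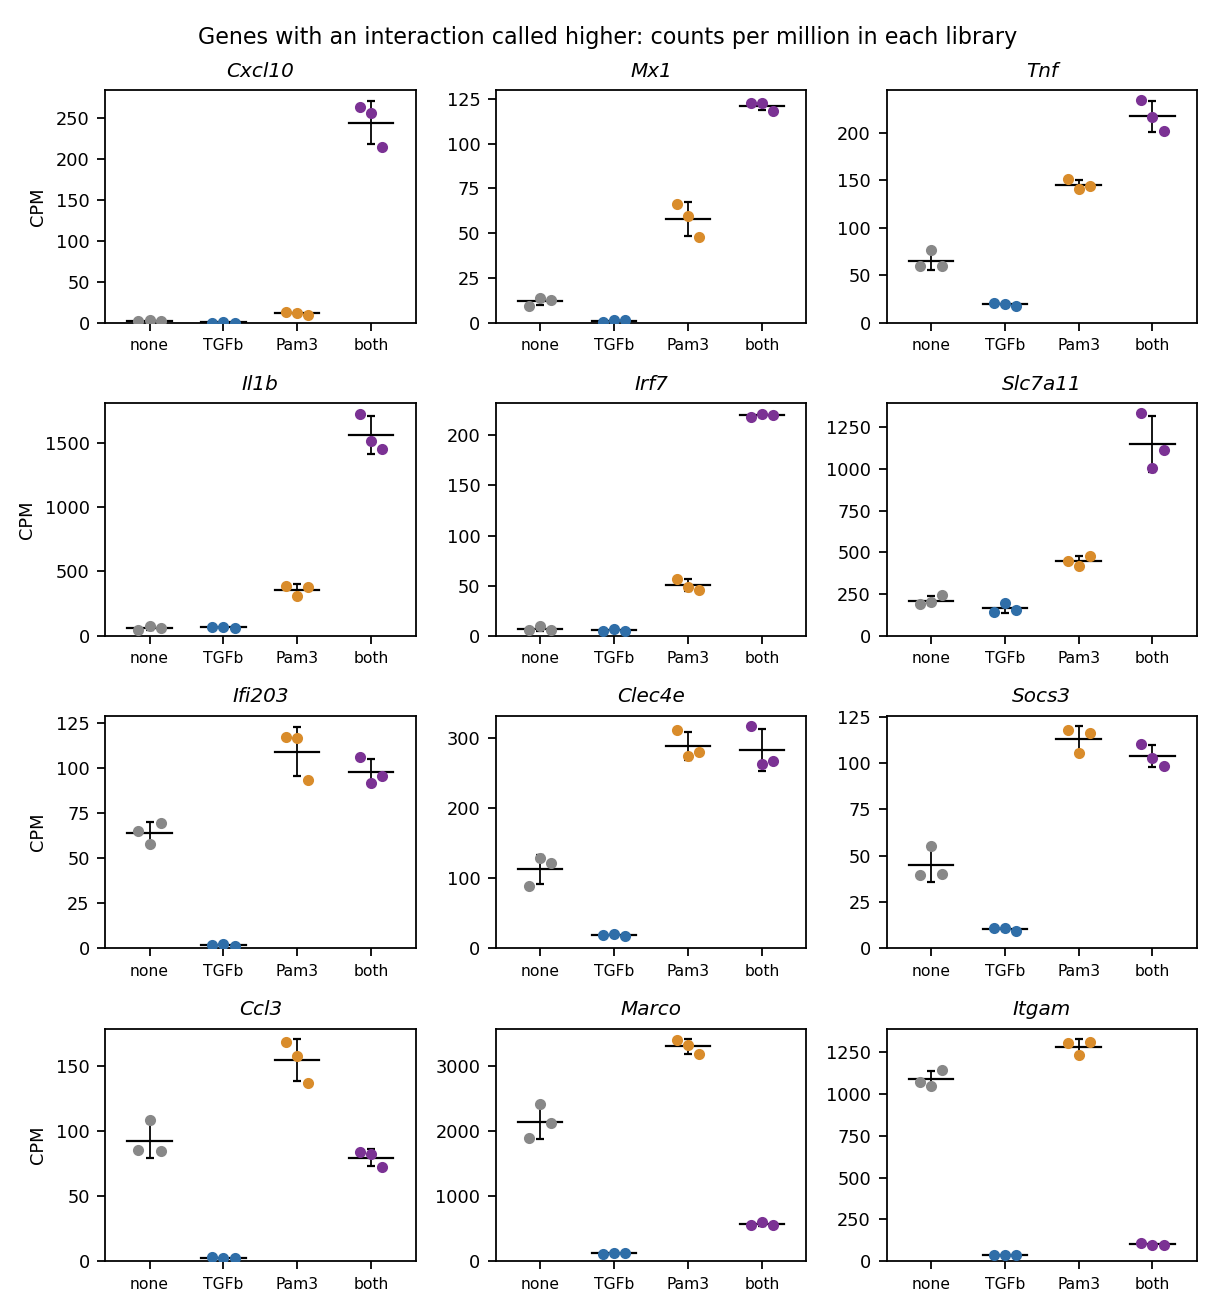
CPM in each of 3 libraries (points) of the groups without agent, with TGFb, with Pam3 and with both, for 12 genes with a higher interaction. Horizontal lines are means with SD bars and every vertical axis starts at 0. Cxcl10, Mx1 and Tnf are lowest with TGFb and highest with both; Il1b, Irf7 and Slc7a11 separate after Pam3 only; Ifi203, Clec4e and Socs3 separate at rest only; Ccl3, Marco and Itgam stay lower with TGFb in both states.

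Lower interactions included genes of alveolar macrophages that TGFb raised. Of 34 alveolar macrophage identity genes 10 were called lower and 5 higher, and 6 of the 10 were higher with TGFb in both states. Under upper-quartile scaling 10 were called lower and 3 higher. The higher count was 3 without Pam3+TGFb 1, Pam3+TGFb 3, TGFb 1 or TGFb 3, and the 7 libraries gave 4 lower and 1 higher. Siglecf (chromosome 7, 43000765 to 43008955), a sialic acid receptor of alveolar macrophages taken from the lectin and Siglec list (6 of 23 lower and 8 higher, or 2 and 4 in the 7 libraries), was at 34.3, 30.1 and 32.0 CPM untreated, 307, 289 and 305 with TGFb, 23.4, 27.1 and 27.5 with Pam3 and 150, 152 and 159 with both. Libraries with both agents lay above all those without TGFb and below all those with TGFb alone. Pam3 changed it by −0.97 ± 0.06 with TGFb and −0.31 ± 0.06 without it (interaction −0.66 ± 0.08, adjusted p = 1.7e-06). Ear2, an eosinophil-associated ribonuclease gene, was at 666, 671 and 624 CPM untreated, 1528, 1528 and 1426 with TGFb, 518, 535 and 540 with Pam3 and 806, 858 and 793 with both (interaction −0.57 ± 0.07). Ear1 had −0.63 ± 0.13, a call lost in the 7 libraries, and reads of these near-identical genes may be split between them. Pparg, a master factor of alveolar macrophages, did not share the pattern. Pam3 changed it by −0.39 in both settings, and its interaction was 0.00 ± 0.06.

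In the TGFb pathway list 4 of 37 genes were called lower and 8 higher, or 5 higher without Pam3 2, Pam3+TGFb 1, Pam3+TGFb 3 or TGFb 1. Upper-quartile scaling of all 12 libraries also gave 5 higher, with 4 lower. The 7 libraries gave 3 in each direction. Id3, an inhibitor of DNA-binding factors and a direct target of TGFb family signals, was at 38.6, 40.8 and 36.2 CPM untreated, 118, 116 and 112 with TGFb, 22.9, 22 and 22.3 with Pam3 and 29.0, 35.6 and 30.4 with both. With both agents it lay below the untreated level (interaction −1.08 ± 0.10, adjusted p = 7.5e-09). In this list 1 higher and 2 lower interactions had a size of at least 1. The higher one was that of Lrrc32, at 6.24, or 1.65 with its TGFb group at the floor of 3 counts per library. In the next 2 lists the share of lower calls was near the 5.67% over all genes, so the genes named are single ones. Of 13 leukocyte integrin genes 2 were called higher and 1 lower (15.4% and 7.69%), or 1 each in the 7 libraries. The lower one, Itgb5, a subunit that can activate latent TGFb, was at 319 to 324 CPM with TGFb and 140 to 149 with both, against 54.7 to 59.0 untreated (interaction −0.83 ± 0.07). Of 20 purine signalling genes 4 were called higher and 1 lower (20.0% and 5.0%), and the lower one was the nucleotide receptor P2ry2 (−0.92 ± 0.11). Of the higher ones 2 had a size of at least 1. Among them Adora2a, an adenosine receptor gene, had 7.71, or 3.13 with its TGFb group at the floor of 3 counts per library. Of 25 Fc receptor and complement genes 10 were called higher and 3 lower, or 5 and 2 in the 7 libraries. The C5a receptor C5ar2 was among the lower ones (−0.76 ± 0.13). Among 36 sterol and fatty acid synthesis genes 6 were called lower and 4 higher, or 3 lower without Pam3 2. The shares in all 12 libraries were 16.7% lower and 11.1% higher, and the latter is near the 10.3% over all genes. Under upper-quartile scaling 9 were called lower and 4 higher. The 7 libraries left 1 lower and no higher call. Fasn, fatty acid synthase, had −0.32 ± 0.08, a call lost in the 7 libraries. Siglece, an inhibitory receptor, was 1 of only 8 genes induced in both settings and less so with TGFb. It rose by 1.55 ± 0.07 without TGFb and 0.67 ± 0.07 with it, from 32.5 to 41.8 CPM untreated and 193 to 197 with TGFb, and the linear difference was 41.2 ± 6.60 CPM higher. Of those 8 genes Lcn2 had the largest interaction (−2.05 ± 0.64), and its call was lost without any 1 of 8 libraries (all 3 Pam3 libraries, Pam3+TGFb 2 and 3, TGFb 2, untreated 1 and 2) and its value was −3.76 without untreated 3.

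In the cell cycle list 10 of 58 genes were called lower and 9 higher (17.2% and 15.5%, against 5.67% and 10.3% over all genes). Cdc6, the loader of the replicative helicase, was at 9.55 to 14.2 CPM untreated, 19.6 to 20.1 with TGFb, 13.7 to 16.1 with Pam3 and 11.9 to 15.2 with both (interaction −0.88 ± 0.17, adjusted p = 5.6e-04). Plk1, a mitotic kinase, was at 25.8 to 28.1, 29.0 to 30.4, 20.9 to 23.2 and 30.1 to 34.4 CPM (interaction 0.45 ± 0.11, adjusted p = 0.0038). Without Pam3+TGFb 1 the higher calls numbered 1, without TGFb 3 they numbered 2, and without Pam3 3, Pam3+TGFb 3, TGFb 1, TGFb 2 or untreated 1 they numbered 3 to 5. Upper-quartile scaling left 4 called higher and 12 lower, and in the 7 libraries 1 lower call was left among the 58 by the same edgeR test, with neither Cdc6 nor Plk1 called.

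In 68 genes the Pam3 responses had called and opposite signs, 33 with a higher and 35 with a lower interaction. The count was 32, 35 and 44 without Pam3 1, 2 and 3, and 9 in the 7 libraries. Areg (chromosome 5, 91287451 to 91296291) encodes amphiregulin, an epidermal growth factor receptor ligand of tissue repair. It was at 1.29, 1.37 and 1.14 CPM untreated, 0.581, 1.09 and 0.707 with TGFb, 0.676, 0.239 and 0.508 with Pam3 and 7.83, 6.27 and 4.61 with both. Only the libraries with both agents exceeded the untreated level. Pam3 changed it by −1.41 ± 0.34 without TGFb and 2.96 ± 0.30 with it (interaction 4.38 ± 0.44, adjusted p = 4.7e-08). Mmp13, a collagenase, was at 25.1, 29.9 and 28.1 CPM untreated, 1.69, 1.88 and 1.99 with TGFb, 16.3, 18.8 and 18.7 with Pam3 and 19.5, 13.5 and 14.1 with both. The groups with Pam3 overlapped, so Pam3 moved it from opposite sides towards the same range (interaction 3.70 ± 0.18, adjusted p = 5.1e-13).

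Irf4, a factor of alternative macrophage activation, was at 89.5 to 97.4 CPM untreated, 15.2 to 17.2 with TGFb, 73.8 to 81.4 with Pam3 and 29.8 to 30.5 with both. The Pam3 response was −0.25 ± 0.06 without TGFb and 0.89 ± 0.07 with it. Mkx, a homeobox gene, changed by −0.50 ± 0.11 and 0.81 ± 0.11. Of 16 iron handling genes 6 were called higher and 2 lower, or 3 and 2 in the 7 libraries. In the other direction Tfrc, the transferrin receptor that imports iron, was at 67.4, 62.6 and 67.5 CPM untreated, 117, 122 and 106 with TGFb, 99.0, 94.6 and 83.3 with Pam3 and 99.7, 97.0 and 96.5 with both. It rose by 0.49 ± 0.06 without TGFb and fell by 0.23 with it (interaction −0.72 ± 0.09, adjusted p = 1.0e-06), and both Pam3 groups overlapped. Fth1, the ferritin heavy chain that stores iron, had the opposite sign (interaction 0.82 ± 0.09). C5ar1, the main C5a receptor, rose by 0.24 ± 0.05 without TGFb and changed by −0.35 ± 0.05 with it, and Tgfbr1, a TGFb receptor subunit, by 0.26 ± 0.07 and −0.31 ± 0.07. Fabp1, a fatty acid binding protein gene of alveolar macrophages, had 0.73 ± 0.17 and −0.54 ± 0.12, and Ipcef1 0.42 ± 0.11 and −1.16 ± 0.10.

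**Figure D4:**
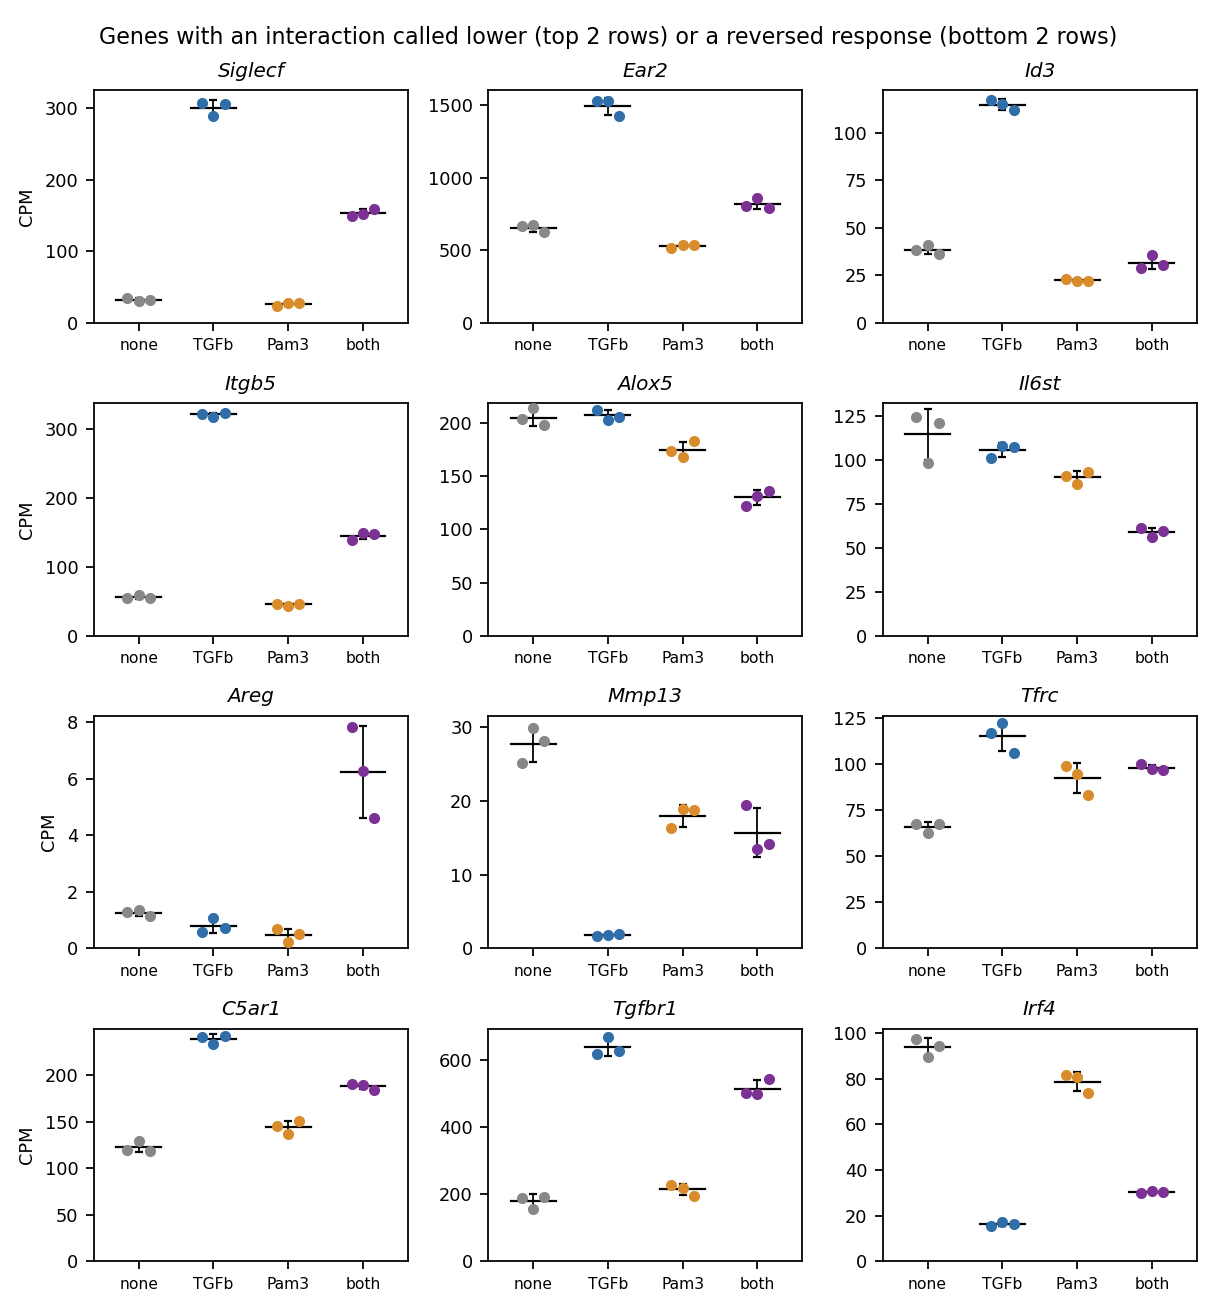
CPM in each of 3 libraries (points) of the groups without agent, with TGFb, with Pam3 and with both, for 6 genes with a lower interaction (top rows) and 6 with a reversed response (bottom rows). Horizontal lines are means with SD bars and vertical axes start at 0. Siglecf, Ear2, Id3 and Itgb5 are highest with TGFb alone, Alox5 and Il6st are lowest with both, and Areg is highest with both.

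**Figure D5:**
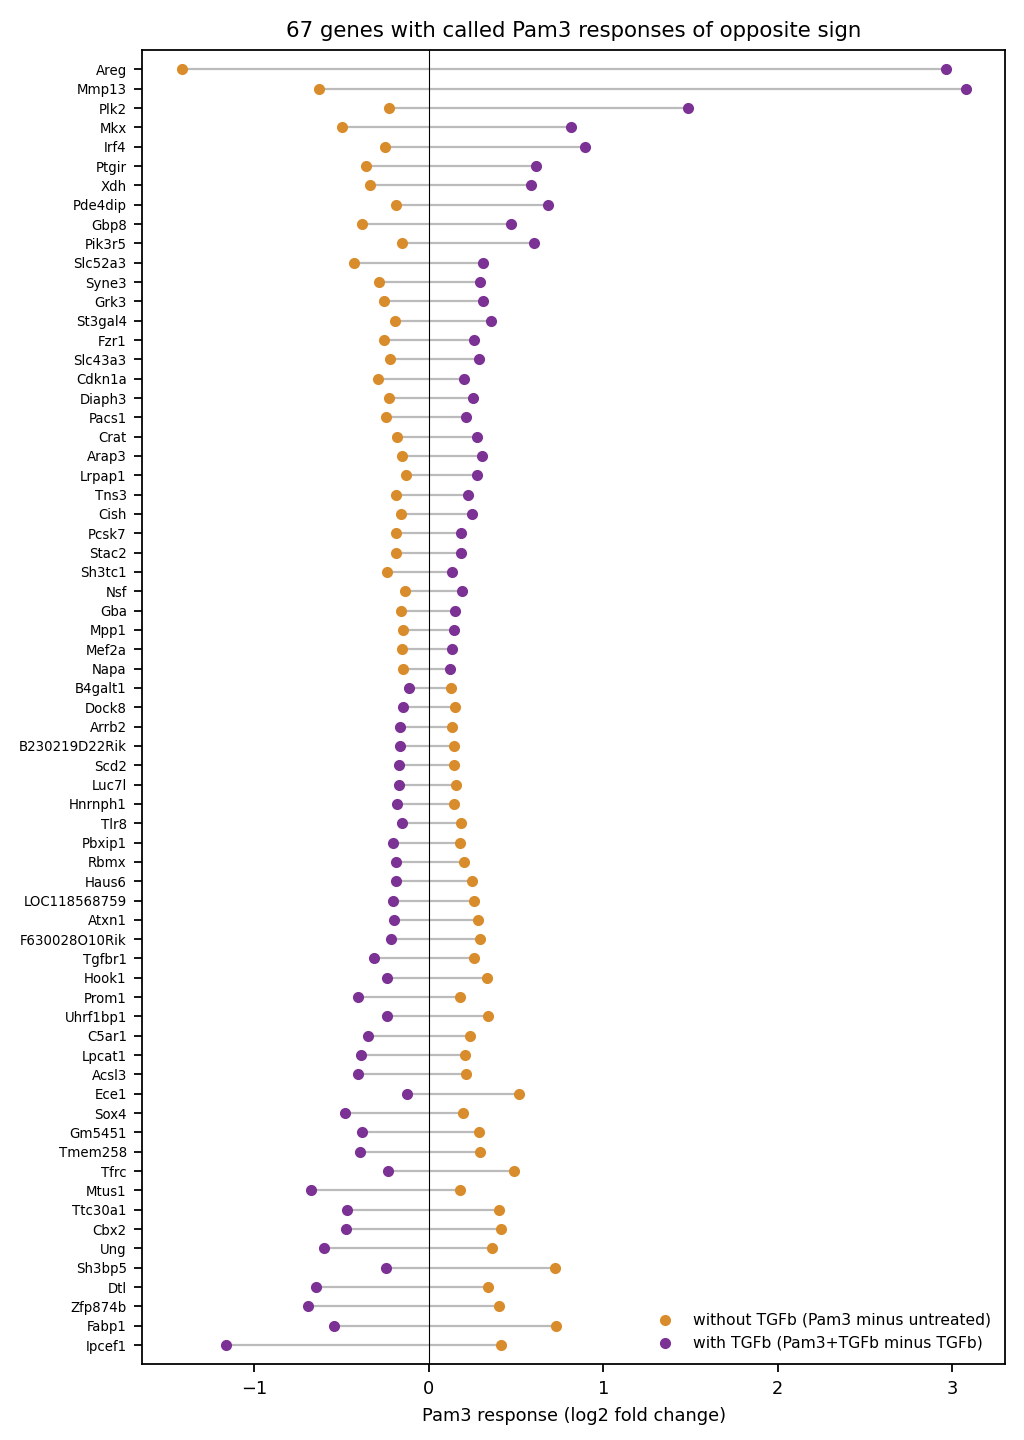
Pam3 response (log2 fold change) without TGFb (orange) and with TGFb (purple) for 67 of the 68 genes whose called responses differ in sign, ordered by interaction. Gem is left out because 2 of its groups held 3 counts or fewer in every library. Areg and Mmp13 have the widest gaps, and most other genes changed by less than 1 in each setting.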

How the data were processed

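Polyadenylated RNA of 12 libraries was counted. The authors deposited raw counts, integers with 1 row per gene symbol. Per the submitters' processing notes, they were made with Bowtie2 2.4.1, featureCounts of Subread 2.0.0 and GRCm39. The annotation, strand setting and treatment of shared reads are not given in the sources used here. A deposited table of normalized values was not used.

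Of 40847 rows, 14749 passed the edgeR expression filter (filterByExpr, minimum 10). The quasi-likelihood test of edgeR 4.0.16 (TMM scaling, robust option, R 4.3.3) was fitted to 4 group means, and every adjusted p is Benjamini-Hochberg over these genes. SE is the size of a log2 fold change divided by the square root of F. CPM uses TMM-scaled library sizes. A group with 3 counts or fewer in every library was set to 3 counts per library for a bound. The read counts carry no molecular identifiers, and counting error is not confined to such floors. Pairs of replicates all differed beyond counting noise (chi-square over its degrees of freedom, 9.99 to 220). The test was checked on simulated data.

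Members, lists and tests were chosen with earlier results of these data known. Genes to name were the 10 largest called interactions in each direction, 10 reversed genes, up to 4 called members per list with any called against it, and 12 genes always given, of which the text describes part. Some named genes are not reported here. Promoters come from RefSeq and positions from GENCODE. Alternatives were RLE and upper-quartile scaling, DESeq2 1.42.0, other filters, a replicate block, a size threshold of 1, each library left out and, added after seeing the data, the ribosomal share as covariate and the 7 libraries with a share under 2%.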

Additional observations from a re-analysis of the deposited data

Results flagged for a closer look

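The interaction is itself a test of whether the Pam3 response differs between cells with and without TGFb, so every called gene meets the rule for a closer look: 1516 genes called higher and 836 called lower. Among them 68 have Pam3 responses of called and opposite sign. Of the genes named for that reason, the interaction (log2) was 4.38 for Areg, 3.70 for Mmp13, 1.31 for Mkx and 1.15 for Irf4. It was −1.58 for Ipcef1, −0.72 for Tfrc and −0.58 for C5ar1. A formal test of outlying samples is not reported, and fits with each library left out in turn are given below.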

How the results depend on the processing

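Each of the 2352 called genes kept the sign of its interaction in every alternative fit in which it was tested. These fits reuse all or part of the libraries that gave the calls, so the kept signs are not independent evidence. The counts of calls stayed within 1.5 times under DESeq2 (2561), RLE scaling (2361), upper-quartile scaling (2352, of which 2091 were shared), no filter (2423), 10 counts in every library (2346) and the covariate for ribosomal share (2081). Without the 5 libraries of high share, the calls were 802, 576 higher and 226 lower. The response was then stronger in 317, gained in 435, weaker in 3, lost in 18 and reversed in 9, and the TGFb effect was called at rest only in 230, with Pam3 only in 192 and in both in 379. This fit has 7 libraries in place of 12. With a size of at least 1, the calls were 479 (385 and 94), with 257 stronger, 190 gained, 4 weaker, 6 lost and 9 reversed, and 111 at rest only, 73 with Pam3 only and 292 in both. Leaving out each library in turn gave 1902 to 2430 calls, 1151 to 1583 higher and 622 to 886 lower. Stronger responses ran from 681 to 885, gained from 966 to 1270, weaker from 7 to 21, lost from 83 to 158 and reversed from 32 to 73. Reversed responses numbered 32, 35 and 44 without Pam3 1, 2 and 3, and weaker ones 7 to 9 without those, Pam3+TGFb 1 or 2, or TGFb 2 or 3. Effects at rest only ran from 506 to 649, with Pam3 only from 334 to 458 and in both from 1009 to 1354. A replicate block gave 2393 calls and changed none of these counts by over 1.5 times. Library numbers were not treated as pairs in the main fit, and whether they mark pairs was not tested. Of 18 same-number pairs 7 had a correlation of deviations from group means over 0.1 (−0.174 to 0.30). The median correlation was 0.061 for same-number pairs and −0.058 for other pairs. Genes of few counts, such as Areg and Cd40, have the least certain folds.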

Other observations

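Some genes of interest fell below the filter and have counts only. Ifnb1, the interferon beta gene, had 0 counts in the 9 libraries of the other groups and 11, 18 and 10 with both agents. Nos2, the inducible nitric oxide synthase, had 0, 2 and 0 counts untreated, 3, 1 and 0 with TGFb, 0, 2 and 2 with Pam3 and 14, 14 and 8 with both. Il10 had at most 1 count in any library.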
